A study of Rattus norvegicus with 12 samples.

Results

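The response of rat liver to S-allylmercaptocysteine (SAMC), a water-soluble organosulfur compound of garlic, was taken as the difference between libraries with and without SAMC, averaged over 2 diets. All 12 of the 12 liver RNA libraries entered it. The 6 libraries with SAMC were 3 of Sprague Dawley rats fed normally and given SAMC (Control+SAMC) and 3 of rats fed a high fat diet and given SAMC (HFD+SAMC). The 6 without it were 3 on the normal diet alone (Control) and 3 on the high fat diet alone (HFD, whose replicates are numbered 2 to 4). The series concerns non-alcoholic fatty liver disease, drug metabolising enzymes and inflammatory signalling. Dose, duration, sex and age are not in the labels, nor whether libraries come from separate animals, so p-values cover the spread of these samples only, and that spread may be technical. Of 40154 genes in the count table, 15916 had enough counts to be tested in 1 fit of all 4 groups with edgeR's quasi-likelihood test. A gene is called here when its p adjusted by the Benjamini-Hochberg method over all genes tested was under 0.05.

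The libraries held 45680738 to 61937544 counts, and no pair within a group differed by as little as counting noise. Levels are given as CPM, counts scaled to a library of 1e+06 counts, with TMM-scaled library sizes. In 4 libraries, called low-fibrinogen here, Fga, a fibrinogen chain, did not exceed 3822 CPM, while the other 8 had at least 8221 CPM. These 4 are 3 untreated libraries (replicate 2 of Control and replicates 2 and 3 of HFD) and 1 with SAMC (replicate 1 of Control+SAMC). Without them HFD keeps replicate 4 alone, so values given without the 4 rest on that library for HFD. Skeletal muscle RNA was present in HFD+SAMC replicate 3, where Acta1 stood at 440 CPM (no other library passed 0.135 CPM). The deposited RPKM values of the Control and HFD+SAMC libraries imply another length for 1 gene than those of the Control+SAMC and HFD libraries. They are treated here as 2 processing sets, which the sample labels do not name. Whether the libraries or counts were also made apart is not known. The average over diet has 3 libraries of each set on each side. Within 1 diet the libraries with SAMC are of one set and those without it of the other, so each diet's own SAMC difference, and the interaction of SAMC and diet, cannot be told apart from the set.

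Averaged over diet, 26 genes rose and 9 fell with SAMC, which is 0.220% of the genes tested in either direction, 0.163% for higher and 0.0565% for lower. The genes that rose include glutathione transferases (Gstp1, Gstm1, Gsta3), aldo-keto reductases (Akr7a3, Akr1b8), other enzymes of drug metabolism (Cyp2b1, Cyp2b2, Ugt1a6, Ephx1, Aldh1a1), the efflux pump Abcc3, the glutathione-recycling enzyme Gsr and the sterol-linked gene Tmem97. The genes that fell include Tle3, Prdx4, Apon, Acnat2 and Clec4g. Genes named in the series title, for the Ah receptor, Nrf2, NF-kB, its inhibitor and NLRP3, did not pass. Over all genes tested an unadjusted edgeR p under 0.05 was reached by 12.4% (6.31% higher and 6.11% lower), and 2.74% were called by DESeq2 and 0.207% by limma voom. Counts of list members at these thresholds below are to be read against those shares. Members and lists were chosen with earlier results of these data known, so such counts are descriptions and not independent support.

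Drug-metabolising genes of the liver are switched on by sensors of foreign or reactive compounds. The factor Nrf2 is held in the cytosol by Keap1 and released by electrophiles and oxidants, after which it binds antioxidant response elements near genes for glutathione transferases, aldo-keto reductases and the enzymes that supply NADPH. The nuclear receptors CAR and PXR act on Cyp2b and Cyp3a genes, and the Ah receptor acts on Cyp1a genes through xenobiotic response elements. Several enzymes, among them Ugt1a6, Nqo1, Ephx1 and Abcc3, are known to respond to more than 1 of these sensors.

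The promoters of 28 of the 35 called genes had an entry in RefSeq (build GRCr8, from 250 bases before to 50 bases after the start). The core of the antioxidant response element, TGACNNNGC, was searched on both strands. It was found in 4 of the 20 promoters of genes that rose (20%: Gstp1, Gsta3, Slc15a1 and Tprg1l) and in 2 of the 8 of genes that fell (Prdx4 and Apon), against 12.2% of 27457 promoters of the same length and 14.2% of the promoters of genes tested. The xenobiotic response element core, GCGTG, was in 10 of the 20 (50%) and in 2 of the 8, against 31.1% of all promoters and 46.9% of those of genes tested. The sterol element core, TCACNCCAC, was in none of the 28 and in 1.13% of all promoters. A match is a description of letters and not a site of binding, and the promoters compared are few. No entry was found for 7 called genes, among them Abcc3, Gsr, Ddhd1, Acsf2, Slc48a1 and Mpp1. Promoters of the 3 called genes with the lowest adjusted p that are of glutathione conjugation or aldehyde reduction and hold a match are printed, each with 1 motif in capitals. The first (chr1:210769656-210769955, minus strand) and the second (chr9:31154739-31155038, plus strand) hold the antioxidant core, which begins 61 and 17 bases before the start. The first also holds the xenobiotic core 2 times on the other strand, left in lower case, 238 bases before the start and at base 31 after it. The third (chr5:156876471-156876770, plus strand) holds the xenobiotic core 57 bases before the start and no antioxidant core.
Gstp1: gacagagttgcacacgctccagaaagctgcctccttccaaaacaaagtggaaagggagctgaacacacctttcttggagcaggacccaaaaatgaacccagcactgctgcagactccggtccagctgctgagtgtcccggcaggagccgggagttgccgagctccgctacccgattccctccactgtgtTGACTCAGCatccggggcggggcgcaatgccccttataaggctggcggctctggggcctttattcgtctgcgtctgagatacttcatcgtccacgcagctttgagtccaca
Gsta3: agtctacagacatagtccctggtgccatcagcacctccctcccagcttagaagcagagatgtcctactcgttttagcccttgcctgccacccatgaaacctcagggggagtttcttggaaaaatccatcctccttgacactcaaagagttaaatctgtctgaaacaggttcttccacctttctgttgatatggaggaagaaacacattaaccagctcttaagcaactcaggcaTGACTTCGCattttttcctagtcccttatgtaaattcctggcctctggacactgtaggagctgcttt
Akr7a3: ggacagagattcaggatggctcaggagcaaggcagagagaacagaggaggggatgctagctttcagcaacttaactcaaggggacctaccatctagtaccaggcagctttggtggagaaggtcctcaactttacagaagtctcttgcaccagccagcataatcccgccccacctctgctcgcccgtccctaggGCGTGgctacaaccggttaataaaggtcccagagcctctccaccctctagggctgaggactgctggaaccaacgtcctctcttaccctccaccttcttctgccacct

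Glutathione transferases, which attach glutathione to electrophiles, held the gene with the lowest p. Gene coordinates are those of the deposited table, which names no build. Gstp1 (Entrez 24426, chromosome 1, 219291679 to 219294147), the pi-class transferase, was at 14.4, 13.7 and 12.1 CPM in Control and 11.8, 13 and 11.1 CPM in HFD. With SAMC it was at 56.8, 52 and 53.7 CPM on the normal diet and 36.2, 27.8 and 28.5 CPM on the high fat diet. The 6 SAMC libraries lay above all 6 others, with a gap larger than the whole range of either untreated group. The averaged log2 fold change was 1.69 ± 0.09 (SE), a 3.23-fold rise (edgeR adjusted p = 6.01e-06).

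Gstm1 (Entrez 24423, chromosome 2, 210803869 to 210809461), a mu-class transferase, was the most abundant called gene per length. Its mean RPKM, a deposited count scaled for gene length and library size, was 992 with SAMC and 299 without. Its CPM was 343 ± 29 in Control, 469 ± 85.3 in HFD, 1338 ± 359 in Control+SAMC and 1293 ± 377 in HFD+SAMC (SD, n = 3 each). The SAMC libraries ran from 1045 to 1739 CPM and the others from 310 to 550 CPM, so the groups did not overlap (3.28-fold, edgeR adjusted p = 0.00210). Gsta3 (Entrez 494500, chromosome 9, 27357490 to 27417023), an alpha-class transferase, was at 32, 28.7 and 25 CPM in Control, 31.1, 24.9 and 35.7 CPM in HFD, 232, 92.3 and 115 CPM in Control+SAMC and 116, 96.5 and 74.6 CPM in HFD+SAMC. All 6 SAMC libraries were above all others, and Control+SAMC replicate 1 was the highest (4.00-fold, edgeR adjusted p = 0.00498). Members of the Gsta and Gstm families are near-identical, so reads may be split between copies and these values are uncertain.

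Among 22 glutathione transferases tested, these 3 rose (0.163% of all genes), none fell (0.0565%) and 19 did not pass. The median log2 fold change over the 22 was 0.38, and 17 were above 0, against a median of -0.0047 and 49.2% above 0 over all genes tested. Gstt3, a theta-class member, fell just outside: its SAMC libraries ran from 311 to 1021 CPM and the others from 59.7 to 278 CPM, with no overlap (log2 fold change 1.94, edgeR adjusted p = 0.0540). No member of the list of sulfur amino acid and glutathione metabolism passed edgeR among 29 tested (median 0.21, 19 above 0), with 3 at an unadjusted p under 0.05 (12.4% of all genes). DESeq2 and limma voom each called 1, Ggt1. Its lowest p was that of Ggt1, a gamma-glutamyl transferase that breaks down glutathione outside the cell. Ggt1 was at 0.829 ± 0.949 CPM in Control, 0.5 ± 0.359 in HFD, 3.24 ± 0.887 in Control+SAMC and 3.59 ± 0.606 in HFD+SAMC (SD, n = 3 each; edgeR adjusted p = 0.0805).

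Aldo-keto reductases reduce reactive aldehydes and ketones with NADPH. Akr7a3 (Entrez 26760, chromosome 5, 157801120 to 157813756), known for reducing aflatoxin dialdehyde, was at 22, 20.5 and 17.3 CPM in Control, 32.9, 44 and 38.2 CPM in HFD, 527, 186 and 306 CPM in Control+SAMC and 167, 167 and 156 CPM in HFD+SAMC. All 6 SAMC libraries were above all others, and the rise was 8.52-fold (log2 fold change 3.09 ± 0.22 SE, edgeR adjusted p = 6.97e-05). Akr1b8, an aldose reductase-like enzyme, had the largest averaged log2 fold change of the called genes, 4.49 ± 0.56 (SE, edgeR adjusted p = 0.0159). It was at 0.857 to 1.66 CPM in Control, 1.38 to 2.29 CPM in HFD, 47.5, 4.06 and 41.6 CPM in Control+SAMC and 51.2, 23.8 and 36.7 CPM in HFD+SAMC. The groups did not overlap, and Control+SAMC replicate 2 was far below the other SAMC libraries. The other 14 of 16 aldo-keto reductases tested did not pass, and the list's median was 0.02 (-0.06 to 0.12 with 1 library left out).

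Genes known as CAR and PXR targets rose in 5 of 23 cases tested and fell in none (0.163% and 0.0565% of all genes). Their median log2 fold change was 0.23. With 1 library left out that median ran from 0.16 (HFD+SAMC replicate 3) to 0.33 (Control replicate 2). Without the 4 low-fibrinogen libraries it was 0.39. Cyp2b1 and Cyp2b2 are the phenobarbital-inducible cytochromes P450 of rat liver. Cyp2b2 (Entrez 361523, chromosome 1, 83103925 to 83119578) was at 3.39, 2.79 and 3.75 CPM in Control and 51.7, 38 and 35.1 CPM in Control+SAMC. It was at 42.1, 161 and 58.3 CPM in HFD and 330, 203 and 252 CPM in HFD+SAMC. Within each diet the SAMC libraries were above the others, but across diets they overlapped, since HFD alone was also above Control. The averaged change was 6.14-fold (edgeR adjusted p = 0.00832). Cyp2b1 (Entrez 24300) had the same order: 0.381 to 0.636 CPM in Control, 4.07 to 7.2 in Control+SAMC, 7.66 to 25.9 in HFD and 47.1 to 70.3 in HFD+SAMC (6.24-fold, edgeR adjusted p = 0.00725). These 2 genes are near-identical copies, and reads may be assigned to either. The deposited table places Cyp2b1 on chromosome 7 (99142431 to 99183540), whereas RefSeq places both on chromosome 1 of GRCr8.

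The other 3 of the 5 were Abcc3, Ephx1 and Aldh1a1. Abcc3 (Entrez 140668, chromosome 10, 82047308 to 82116928), which pumps conjugates from hepatocytes into blood, was at 4.14, 5.24 and 3.34 CPM in Control, 12.2, 16.2 and 12.4 CPM in HFD, 57.2, 31.2 and 19.8 CPM in Control+SAMC and 36.3, 58.8 and 28.7 CPM in HFD+SAMC. The SAMC libraries did not overlap the others (5.08-fold, edgeR adjusted p = 0.00725). Ephx1, the microsomal epoxide hydrolase, was at 187 to 582 CPM without SAMC and 592 to 1794 CPM with it, with no overlap (3.47-fold, edgeR adjusted p = 0.0297). Aldh1a1, which oxidises retinaldehyde and other aldehydes, was at 54.1 to 132 CPM without SAMC and 160 to 282 CPM with it, again with no overlap (2.37-fold, edgeR adjusted p = 0.0174). Of 31 drug-metabolising cytochromes P450 tested, the 2 Cyp2b genes were the only ones called, and the median was 0.10. Abcc3 was the only one called of 22 hepatic transporters (median -0.12).

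Ugt1a6 (Entrez 113992, chromosome 9, 95241609 to 95302822), which attaches glucuronic acid to phenols, was at 12.9, 9.99 and 9.98 CPM in Control, 21.3, 12.6 and 18.5 CPM in HFD, 170, 79.8 and 78.3 CPM in Control+SAMC and 42.1, 67.5 and 26.7 CPM in HFD+SAMC. The SAMC libraries were above all others (5.10-fold, edgeR adjusted p = 0.00783). Ugt1a genes share exons, so the assignment of reads to 1 of them is uncertain. Ugt1a6 was the only one called of 25 glucuronosyltransferases, sulfotransferases and their suppliers (median 0.35, 16 above 0). It was also the only one called of 9 genes of the Ah receptor pathway tested (median 0.64, 8 above 0). Cyp1a2, a constitutive hepatocyte target of that receptor, was at 472 to 931 CPM without SAMC and 955 to 1555 CPM with it, without overlap, and did not pass (log2 fold change 0.64, edgeR adjusted p = 0.139). Cyp1a1 was low and scattered, from 0 to 1.2 CPM without SAMC and 0.348 to 13.9 CPM with it (edgeR adjusted p = 0.249).

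Nrf2 targets and antioxidant enzymes, as a list, had 9 of 33 members called higher (0.163% of all genes), none lower and 24 not passing. Their median log2 fold change was 0.51, with 31 of 33 above 0. Among the 9 are Gstp1, Gstm1, Gsta3, Akr7a3, Akr1b8, Ephx1, Abcc3 and Gsr, so most also stand in the lists above. Members of the list were chosen with earlier results of these data known, so its counts are not independent of them. The summed level of the list was 7530 to 9604 CPM in the 6 untreated libraries and 10016 to 16319 CPM in the 6 with SAMC, without overlap. This sum holds the called genes, so it is not separate evidence. Among them, Gstm1 had a mean of 469 CPM in HFD and 1293 CPM in HFD+SAMC, and Ephx1 414 and 879 CPM. Gsr, which regenerates reduced glutathione, was at 54.8 to 63.2 CPM in Control, 97.2 to 138 in Control+SAMC, 66.9 to 74 in HFD and 73.7 to 97.6 in HFD+SAMC (1.58-fold, edgeR adjusted p = 0.0272). Its SAMC libraries overlapped the untreated ones on the high fat diet. Nqo1, the standard quinone reductase of this list, was at 24.4 to 98.5 CPM without SAMC and 72.1 to 130 CPM with it and did not pass (log2 fold change 0.76, edgeR adjusted p = 0.245).

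**Figure D1:**
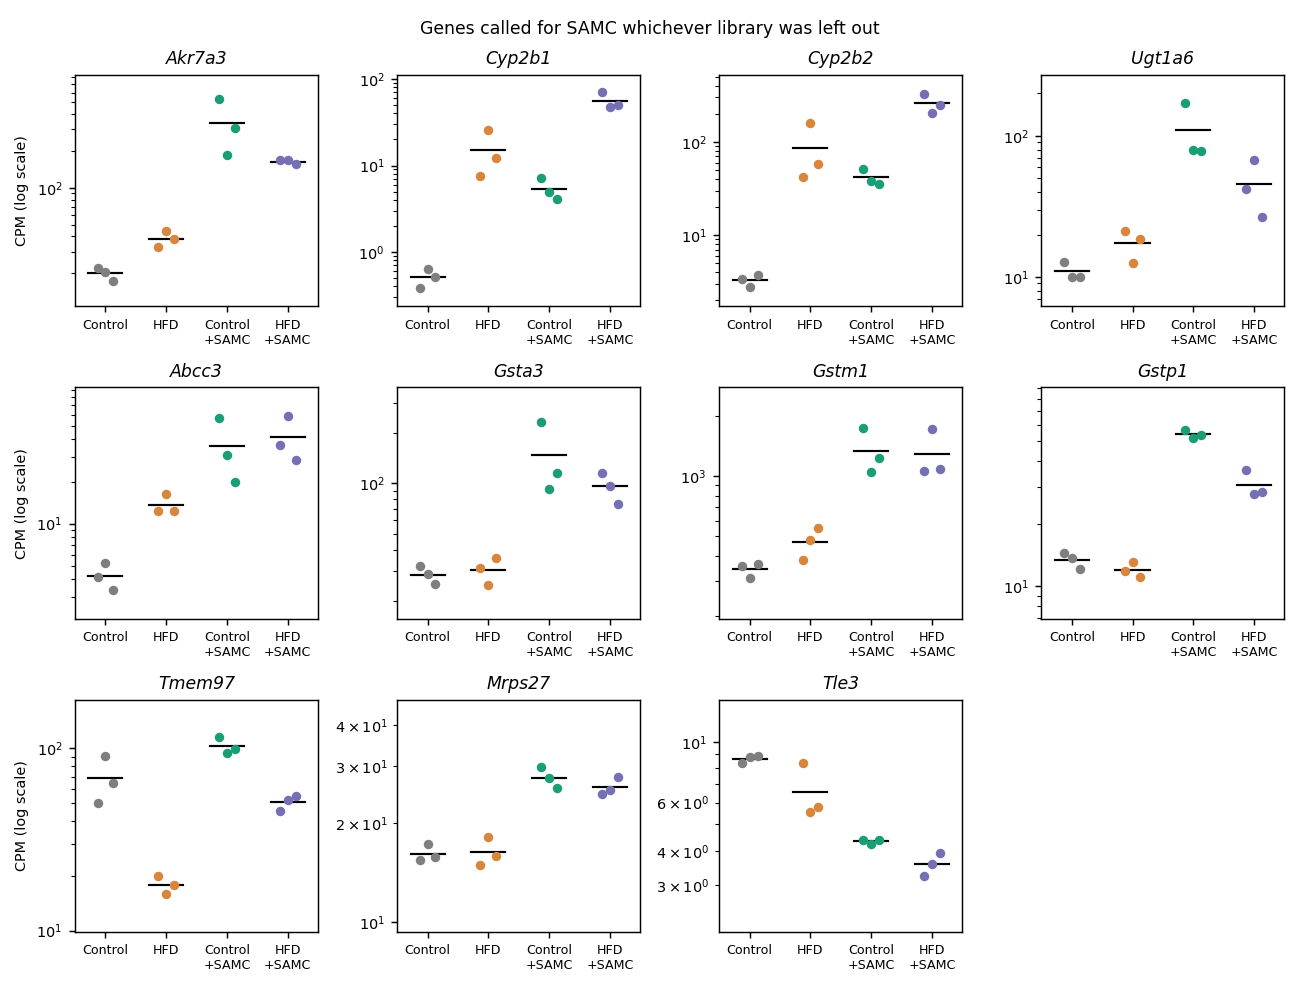
CPM on a log scale for the 11 genes that stayed called whichever of the 12 libraries was left out. Points are libraries and bars are group means (n = 3). Gstp1 ran from 11.1 to 14.4 CPM in the 6 untreated libraries and from 27.8 to 56.8 CPM in the 6 with SAMC, while for Cyp2b2 the Control+SAMC libraries overlap HFD, for Tmem97 the HFD+SAMC libraries overlap Control, and for Cyp2b1 all 3 Control+SAMC libraries lie below HFD.

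Tmem97, a sterol-responsive gene whose protein binds the cholesterol carrier NPC1, was called as 1 of 28 genes of cholesterol synthesis and uptake. It is on chromosome 10 (65811455 to 65820538; Entrez 303330). It was at 50, 91.2 and 64.7 CPM in Control and 115, 94.7 and 98.8 CPM in Control+SAMC. On the high fat diet it was at 19.8, 15.8 and 17.8 CPM alone and 45.1, 52.3 and 55.1 CPM with SAMC. Within each diet the SAMC libraries were above the others, and across diets they overlapped (2.07-fold, edgeR adjusted p = 0.00832).

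Of the 28 sterol genes, 27 had a log2 fold change above 0 and the median was 0.91, while 27 did not pass edgeR. At an unadjusted p under 0.05, 17 were higher and none lower (6.31% and 6.11% of all genes), and DESeq2 called 8 higher, among them Fdps, Fdft1, Sqle, Cyp51, Dhcr7 and Tmem97. The median was 0.60 on the normal diet and 1.29 on the high fat diet. Dhcr7, which reduces 7-dehydrocholesterol to cholesterol (log2 fold change 1.33, edgeR adjusted p = 0.134), and Cyp51, the lanosterol demethylase (1.13, edgeR adjusted p = 0.140), did not pass edgeR. The summed level of the 28 genes was 2402, 9661 and 3552 CPM in Control, 9329, 8247 and 7399 CPM in Control+SAMC, 1380, 1744 and 1075 CPM in HFD and 3047, 3585 and 2518 CPM in HFD+SAMC. Control replicate 2 thus stood with the SAMC libraries of its diet. With 1 library left out the list's median ran from 0.72 (Control replicate 1) to 1.39 (Control replicate 2). Without the 4 low-fibrinogen libraries it was 1.58.

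**Figure D2:**
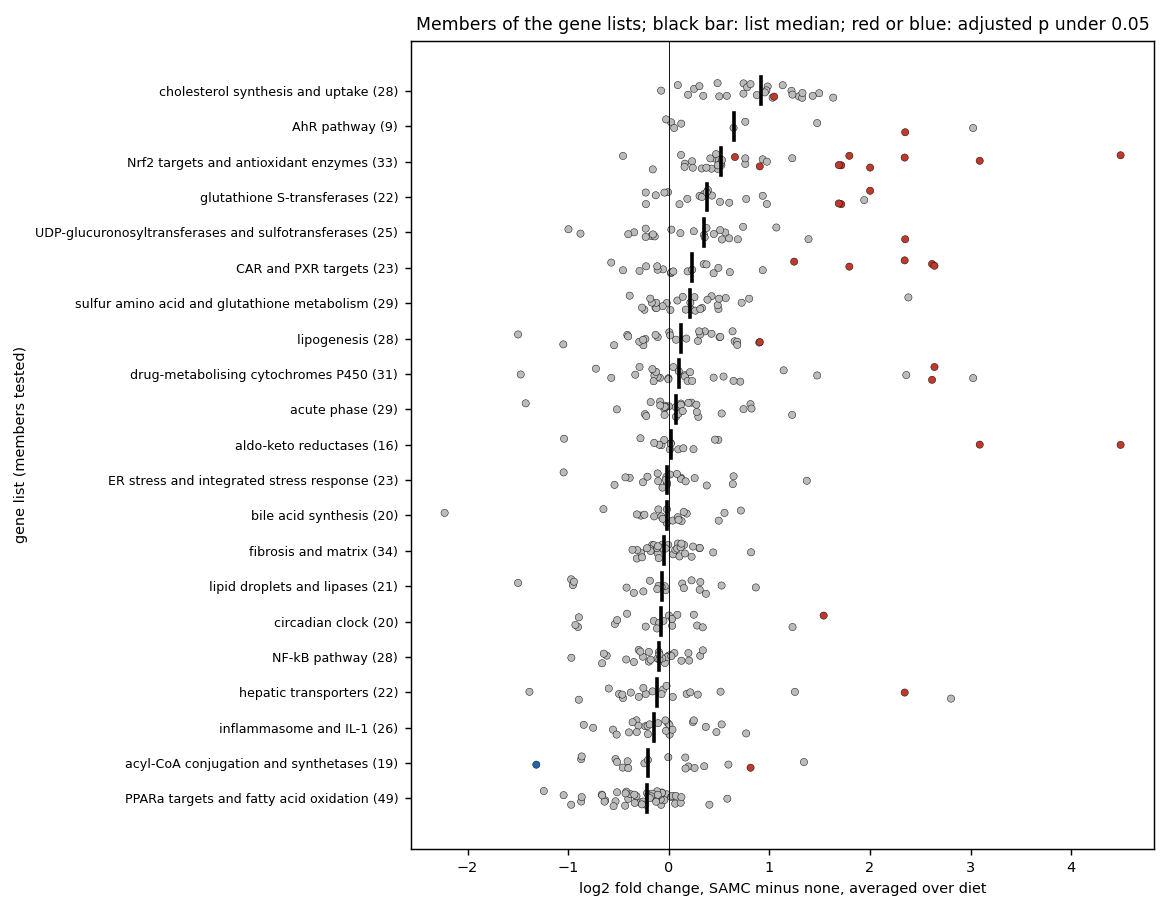
Averaged log2 fold change (SAMC minus none) of every tested member of 21 gene lists, ordered by list median (black bar). Members with adjusted p under 0.05 are red (higher) or blue (lower). The median was 0.91 for cholesterol synthesis and uptake, 0.51 for Nrf2 targets and -0.22 for fatty acid oxidation.

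Of the genes of lipid handling, Acsf2 rose, and Acnat2, Ddhd1 and Apon fell. Acsf2, a mitochondrial medium-chain acyl-CoA synthetase, was at 95.1 to 115 CPM in Control, 129 to 161 in Control+SAMC, 45.6 to 69.1 in HFD and 104 to 158 in HFD+SAMC. Its SAMC and untreated libraries overlapped across diets but not within them (1.76-fold higher, edgeR adjusted p = 0.0272). Acnat2, an enzyme that joins acyl groups to amino acids, was at 1.05, 0.979 and 1.10 CPM in Control, 0.739, 0.475 and 0.818 CPM in Control+SAMC, 4.78, 7.02 and 6.85 CPM in HFD and 1.40, 1.13 and 2.07 CPM in HFD+SAMC. It was 2.49-fold lower on average (edgeR adjusted p = 0.0272) and below the untreated libraries within each diet. Ddhd1, a phospholipase of phosphatidic acid, was at 36.1 to 43.7 CPM in Control, 16 to 23.5 in Control+SAMC, 11.6 to 17.6 in HFD and 7.87 to 11.1 in HFD+SAMC (1.87-fold lower, edgeR adjusted p = 0.0272). Apon, an apolipoprotein gene, was at 62.7 to 104 CPM without SAMC and 40.6 to 60 CPM with it (1.67-fold lower, edgeR adjusted p = 0.0272).

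None of 49 targets of PPARa and genes of fatty acid oxidation passed edgeR, 41 of them were below 0 and the median was -0.22 (with 1 library left out it ran from -0.34, HFD+SAMC replicate 1, to -0.13, Control replicate 1). At an unadjusted p under 0.05, 10 were lower and 1 higher (6.11% and 6.31% of all genes), and DESeq2 called 2 lower (Acot4 and Creb3l3). Acot4, a peroxisomal acyl-CoA thioesterase, had the lowest p of them (log2 fold change -0.87, edgeR adjusted p = 0.0888). By edgeR none of 20 genes of bile acid synthesis and none of 21 of lipid droplets passed (medians -0.02 and -0.07), with 2 and 6 at an unadjusted p under 0.05 (12.4% of all genes). DESeq2 called 2 of the first (Hsd3b7 higher, Nr0b2 lower) and 4 of the second (Cidea higher; Hsd17b13, G0s2 and Apoa4 lower), and limma voom none of either. G0s2, an inhibitor of the lipase Pnpla2, was at 273 ± 23.3 CPM in Control, 180 ± 31.7 in Control+SAMC, 258 ± 114 in HFD and 106 ± 9.46 in HFD+SAMC (SD, n = 3 each; edgeR adjusted p = 0.0739).

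Several called genes belong to none of these pathways. Mrps27 (Entrez 361883, chromosome 2, 29598344 to 29666711), a protein of the mitochondrial ribosome, was at 14.9 to 18.2 CPM without SAMC and 24.6 to 29.8 CPM with it. The groups did not overlap, and the change was 1.65-fold (edgeR adjusted p = 0.00498), with a log2 fold change of 0.77 on the normal diet and 0.67 on the high fat diet. Lgals2, a galectin, was at 1.05 to 2 CPM without SAMC and 2.41 to 5.59 CPM with it (2.75-fold, edgeR adjusted p = 0.0272). Bhlhe41, a repressor of the circadian clock, was at 0.673 to 2.35 CPM without SAMC and 2.54 to 4.93 CPM with it (2.91-fold, edgeR adjusted p = 0.0272). It was the only one called of 20 clock genes (median -0.07).

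A further 7 genes rose by 1.40-fold to 3.13-fold. Slc48a1, which carries heme out of lysosomes, was at 15.6 to 21 CPM without SAMC and 25.8 to 34.7 CPM with it (1.59-fold). Gda, which deaminates guanine, was at 35.7 to 45.3 and 51 to 61.8 CPM (1.40-fold). Ppl, a plakin of cell junctions, was at 1.37 to 2.53 and 3.01 to 9.17 CPM (3.13-fold). Groups of these 3 did not overlap, nor did those of Smtnl2, a smoothelin-like muscle protein (2.89-fold), and Wdfy2, a scaffold of early endosomes (1.48-fold). The SAMC libraries of Mpp1, a membrane scaffold (1.43-fold), and Tprg1l (1.47-fold) overlapped the others. Slc15a1, an intestinal peptide transporter that is low in liver, was at 0 to 0.0953 CPM without SAMC and 0.449 to 1.88 CPM with it (edgeR adjusted p = 0.0177); its fitted log2 fold change of 4.40 depends on the prior count.

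Of the genes that fell, Tle3 (Entrez 84424, chromosome 8, 66296509 to 66342186), a Groucho-type corepressor, had the lowest p. It was at 8.38, 8.81 and 8.86 CPM in Control, 8.36, 5.56 and 5.80 CPM in HFD, 4.37, 4.23 and 4.40 CPM in Control+SAMC and 3.24, 3.57 and 3.93 CPM in HFD+SAMC. All 6 SAMC libraries were below all others (1.92-fold lower, edgeR adjusted p = 0.0113). Prdx4, the peroxiredoxin of the endoplasmic reticulum, was at 52.8 to 77.3 CPM without SAMC and 33.8 to 48.8 CPM with it (1.58-fold lower, edgeR adjusted p = 0.0272). Tmem125, a membrane protein, was at 31.6 to 46.8 CPM without SAMC and 8.17 to 22.9 CPM with it (2.37-fold lower, edgeR adjusted p = 0.0272). Groups of both did not overlap. Rnf144b, a ubiquitin ligase, overlapped by a little, at 89.8 to 109 CPM without SAMC and 48.4 to 95.8 CPM with it (1.52-fold lower, edgeR adjusted p = 0.0272). The remaining gene that fell, the non-coding LOC103693474, was 2.68-fold lower (edgeR adjusted p = 0.0235).

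Clec4g, a lectin of sinusoidal endothelium, was at 23.4 to 28.8 CPM without SAMC and 12.4 to 22 CPM with it, without overlap (1.67-fold lower, edgeR adjusted p = 0.0297). It was the only one called of 12 sinusoidal endothelial markers (median -0.12, 9 below 0; 0.025 without the low-fibrinogen libraries), whose summed level was 477 to 625 CPM without SAMC and 422 to 559 CPM with it. In bulk tissue, fewer cells of a type and less RNA per cell cannot be told apart. None of the members of the other 14 marker lists was called by edgeR or limma voom. DESeq2 called 10 of their 128 genes (2.74% of all genes). At an unadjusted edgeR p under 0.05, 8 of the 128 were higher and 23 lower, against 6.31% and 6.11% of all genes. Of 12 hepatocyte markers, 10 were below 0 (median -0.31; -0.18 without the low-fibrinogen libraries) and 7 of the 12 were lower at an unadjusted p under 0.05 (6.11% of all genes), among them Ttr (log2 fold change -0.53, edgeR adjusted p = 0.173). The summed hepatocyte markers ran from 124865 to 365448 CPM without SAMC and from 131611 to 218672 CPM with it. Of 13 T and NK cell markers, 12 were below 0 (median -0.50; -0.77 without Control+SAMC replicate 2 and -0.11 without the low-fibrinogen libraries), at a summed 43.9 to 87.8 CPM without SAMC and 37.2 to 66.7 CPM with it. Of 12 proliferation markers tested, 11 were below 0 (median -0.52; -1.03 without Control+SAMC replicate 2), at a summed 6.50 to 17.1 CPM without SAMC and 5.54 to 9.18 CPM with it. Other marker lists had medians above 0. Of 10 pericentral hepatocyte markers, 7 were above 0 (median 0.20). At an unadjusted edgeR p under 0.05, 3 of them were higher and 0 lower (6.31% and 6.11% of all genes). Of 11 cholangiocyte markers, 6 were above 0 (median 0.29), with 3 higher and 1 lower at that p. All 6 neutrophil markers tested were above 0 (median 0.70), with 0 at that p. The part of these markers in the results was not tested.

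**Figure D3:**
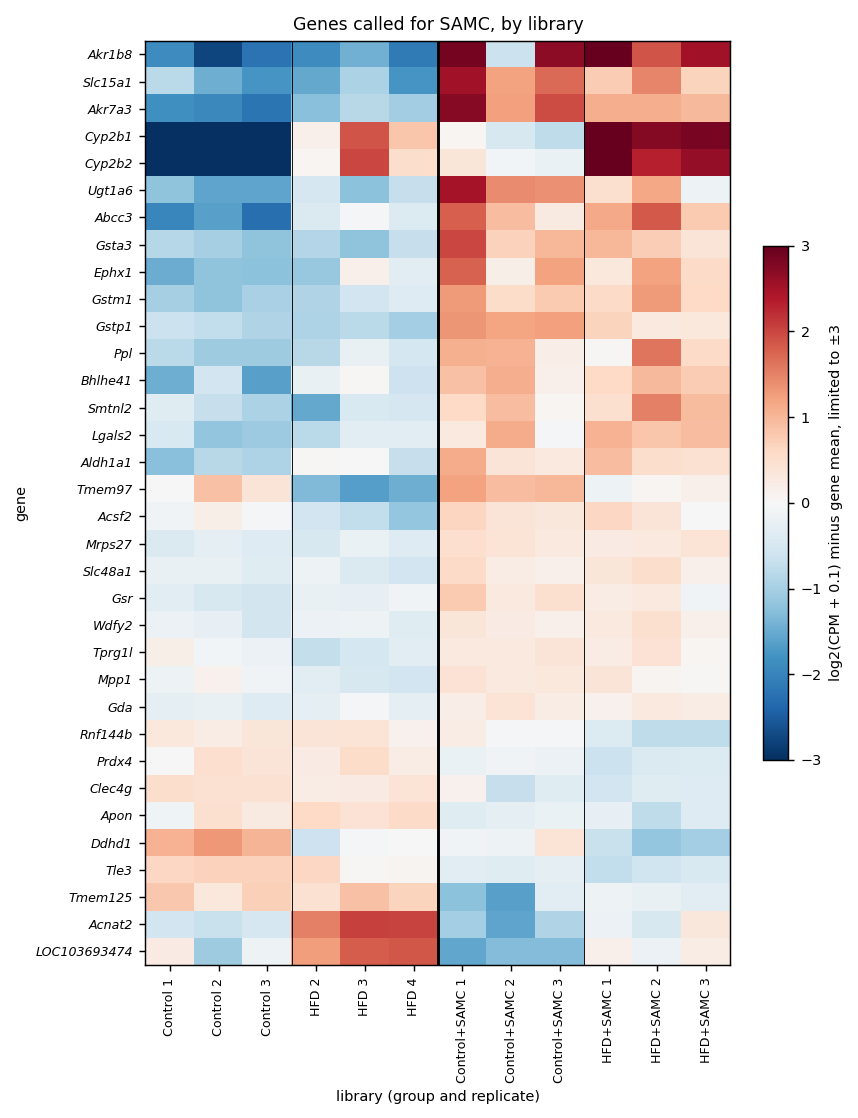
34 of the 35 called genes (rows, ordered by averaged log2 fold change) in the 12 libraries (columns), as log2(CPM + 0.1) minus the gene's mean, limited to 3 either way. The thick line parts libraries without SAMC (left) from those with it. Gstp1, Gstm1, Gsta3 and Mrps27 change side at that line in both diets. Of these Gstp1 was also called for diet, as were Cyp2b1, Cyp2b2, Acnat2 and LOC103693474.

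The genes of the series title and their standard targets were examined whatever their p. Ahr (log2 fold change 0.12, edgeR adjusted p = 0.921), Nfe2l2, which encodes Nrf2 (-0.20, edgeR adjusted p = 0.501), and Keap1 (-0.08, edgeR adjusted p = 0.843) did not pass. Nfkbia, which encodes IkBa, was at -0.28 (edgeR adjusted p = 0.541), Nfkb1 at 0.03 (0.933) and Rela at -0.0040 (0.993). Nlrp3 was at 3.23 to 8.26 CPM without SAMC and 2.86 to 4.92 CPM with it (log2 fold change -0.30, edgeR adjusted p = 0.551). Nlrp6 had no read in any of the 12 libraries, which by counting error alone allows 3 counts a library, or 0.0484 to 0.0657 CPM. Hmox1, the heme oxygenase, was at 42.2 to 177 CPM without SAMC and 95.2 to 261 CPM with it (edgeR adjusted p = 0.593). None of 28 NF-kB genes (median -0.10, 20 below 0) and none of 26 inflammasome genes (median -0.15, 17 below 0, but 0.013 without the low-fibrinogen libraries) was called by edgeR, with 2 of each at an unadjusted p under 0.05, all lower (6.11% of all genes were lower at that p). DESeq2 called none of the first and 1 of the second (P2rx7, lower), and limma voom none. P2rx7, the ATP-gated channel upstream of NLRP3, had the lowest p of them: 13 ± 2.57 CPM in Control, 7.32 ± 1.95 in Control+SAMC, 14.2 ± 3.43 in HFD and 7.8 ± 0.529 in HFD+SAMC (SD, n = 3 each; edgeR adjusted p = 0.0707). None of the acute phase (29), endoplasmic reticulum stress (23) and fibrosis (34) genes tested passed edgeR or limma voom, with medians of 0.07, -0.02 and -0.05. At an unadjusted p under 0.05 there were 5, 3 and 5, which is near the 12.4% of all genes, and DESeq2 called 3 (Orm1 and Cd14 higher, A2ml1 lower), 1 (Ppp1r15a, lower) and 0.

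Each diet's own SAMC difference, which cannot be told apart from the processing set, was then set beside the average. On the normal diet 19 genes were called (0.119% of genes tested, 18 higher and 1 lower), and on the high fat diet 8 (0.0503%, 3 higher and 5 lower). Of the 35 called on average, 12 were also called on the normal diet, 5 on the high fat diet, 2 on both (Gstp1 and Akr7a3) and 20 on neither. All 35 had the same sign on both diets, and 32 had an unadjusted edgeR p under 0.05 on both (2.25% of all genes). Choosing the 35 by the average of the 2 differences favours both counts. The share of all genes is thus no like background, and neither count is a replication. Gstp1 had a log2 fold change of 2.02 ± 0.13 on the normal diet and 1.36 ± 0.13 on the high fat diet (SE). Akr7a3 had 4.09 ± 0.32 and 2.09 ± 0.30.

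Of the 26 genes that rose, 20 had the larger log2 fold change on the normal diet, among them Ugt1a6 (3.32 against 1.38). The other 6 had it on the high fat diet, among them Tmem97 (0.58 against 1.51) and Acsf2 (0.45 against 1.17). Of the 9 that fell, 5 had the larger change on the high fat diet, among them Acnat2 (-0.62 against -2.02) and Rnf144b (-0.26 against -0.95). The interaction, which tests these differences, was called for 23 genes (0.145%) of which none was among the 35; its lowest adjusted p there was 0.115, for Akr7a3, and 14 had an unadjusted p under 0.05 (7.41% of all genes). For the interaction DESeq2 called 3 of the 35, Akr7a3, Cyp2b2 and Ugt1a6 (0.804% of all genes), and limma voom none. The effect of diet itself was called for 67 genes (0.421%), 7 of them among the 35: Cyp2b1, Cyp2b2, Acnat2 and LOC103693474 were higher on the high fat diet, and Tmem97, Ddhd1 and Gstp1 lower.

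**Figure D4:**
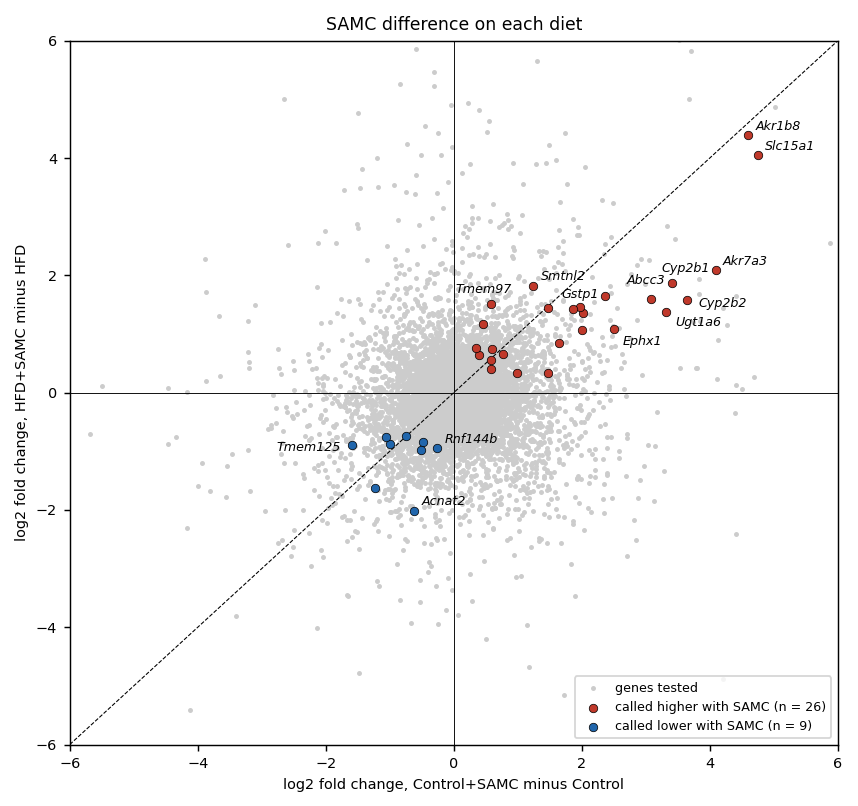
Log2 fold change with SAMC on the normal diet (x axis) and on the high fat diet (y axis) for the genes tested, with 20 genes beyond the axes of 6 either way. Red and blue points are the 26 and 9 called genes, and the dashed line marks equal change. All 35 lie in the upper right or the lower left, and Cyp2b2, Akr7a3 and Ugt1a6 lie furthest below the line.

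The SAMC differences of the 2 diets were also compared over all genes tested. An unadjusted p under 0.05 was reached by 1557 genes on the normal diet and 1690 on the high fat diet, and 358 genes reached it on both (23.0% and 21.2% of each list). Of the 358, 140 were higher on both, 102 lower on both and 116 opposite, so 67.6% had the same sign, against 55.3% of all genes tested. Across the 15916 genes, which are not independent, Pearson's r of the 2 log2 fold changes was 0.109 and Spearman's rho 0.151. The 2 differences share no library but come from 1 fit. The processing sets stand the opposite way round in them, so a difference between sets would enter them with opposite sign. How far the diets agree in these values therefore cannot be told apart from the set. Apart from the test, 152 genes (0.955%) had all 6 SAMC libraries on 1 side of all 6 others, 91 above and 61 below, and 23 of the 35 called genes were among them.

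Without the 4 low-fibrinogen libraries HFD keeps replicate 4 alone, so the number of calls in that fit is not given. All 35 genes kept their direction there, which choosing them on all 12 libraries favours. The log2 fold change was then 1.74 for Gstp1, 2.88 for Akr7a3, 1.45 for Gstm1 and 0.54 for Gsr. Without HFD+SAMC replicate 3, the library with muscle RNA, 24 genes were called, 20 of the 35 among them, and the median of the 5 muscle markers was -0.41 in place of 2.66.

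Leaving out each library in turn kept the direction of all 35 genes. Choosing the 35 on all 12 libraries favours this, so it is not independent support. The calls of 11 genes held in all 12 cases: Gstp1, Akr7a3, Gstm1, Gsta3, Mrps27, Abcc3, Cyp2b1, Cyp2b2, Ugt1a6, Tmem97 and Tle3. The other 24 lost the call in at least 1 case. Of the 21 pathway lists, 4 kept their median within 1.5 times when any 1 library or the 4 low-fibrinogen libraries were left out (Nrf2 targets, glutathione transferases, the Ah receptor pathway and the glucuronosyltransferases). In 9 it changed sign: aldo-keto reductases, hepatic transporters, acyl-CoA conjugation, bile acid synthesis, inflammasome, acute phase, clock, endoplasmic reticulum stress and fibrosis. Without Control replicate 1, 2 or 3, respectively 26, 31 and 12 of the 35 were still called, among 46, 68 and 13 genes in all. Without Control+SAMC replicate 1, 2 or 3 the numbers were 16, 19 and 32 of the 35, among 18, 21 and 65. Without HFD replicate 2, 3 or 4 they were 18, 14 and 15, among 18, 17 and 18, and without HFD+SAMC replicate 1, 2 or 3 they were 19, 13 and 20, among 21, 14 and 24. For 18 of the 24 the highest adjusted p came without Control replicate 3, as for Aldh1a1 (0.0795), Akr1b8 (0.0871), Clec4g (0.102) and Ephx1 (0.112).

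Beyond the 35, 108 genes had an adjusted p from 0.05 to 0.10, 59 higher and 49 lower. The 8 with the lowest p were Bloc1s1, Gnptab, Il4r, Cryl1, Gstt3, Acsm3, Plppr1 and Pcyox1, at adjusted p of 0.0501 to 0.0623 by edgeR. Cryl1, a dehydrogenase of L-gulonate, was at 2.76 to 12.3 CPM without SAMC and 19.9 to 107 CPM with it. Pcyox1, a prenylcysteine oxidase, was at 34.5 to 39.6 and 43.6 to 60.7 CPM. The 2 groups of each did not overlap. Il4r, a chain of the interleukin-4 receptor, was at 115 to 179 CPM without SAMC and 94.1 to 116 CPM with it, and overlapped.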

How the data were processed

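Liver RNA of 12 libraries was sequenced as pairs after removal of ribosomal RNA, per the labels' protocols. Reads were trimmed with Trimmomatic 0.36 and checked with FastQC, per the submitters' processing notes, which also name HISAT2 and HTSeq. The deposited table holds a read count and an RPKM value per gene and library. The RPKM the authors deposited equals count over length and library total for all but 1 gene (relative tolerance 1e-06). Build, annotation and strand setting: not given in the sources used here. Thus overlapping, antisense and near-identical genes have uncertain counts.

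Tests of the counts used edgeR 4.0.16 (R 4.3.3): filterByExpr, TMM scaling, 1 robust quasi-likelihood fit of 4 groups with 8 residual degrees of freedom, two-sided tests and Benjamini-Hochberg adjustment. The common biological coefficient of variation was 0.299. The script was tested on simulated data. CPM use TMM-scaled library sizes. Named were all called genes whose mean log2 CPM was 1 or more and whose symbol is not provisional, with the other called genes added, up to 8 genes just beyond the threshold, up to 4 members per list by p, and the genes of the title. Some genes that the rules would name are not reported here. Not all members the list rule allows are named, and markers of blood cells, fat and pancreas are given by counts only. Of 678 list symbols, 662 matched the table by symbol, 11 by a synonym and 5 not at all. Members and lists were chosen with earlier results of these data known. Alternatives used limma 3.58.1 and DESeq2 1.42.0, other scalings, filters and designs, and fewer libraries. No column of the table was left unused for want of a sample. Promoters are RefSeq's (GRCr8).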

Additional observations from a re-analysis of the deposited data

How the results depend on the processing

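The 35 genes called for SAMC averaged over diet were chosen on these libraries, which favours their keeping direction in other settings. They kept it under every alternative run in which they were tested. Their number stayed within 1.5 times with other scalings (38 with RLE and 38 with upper quartile), a filter of 1 CPM in 6 libraries (42), limma voom (33), non-robust dispersion (44) and the additive design (26). It was 67 without a filter on low counts, where 25974 genes were tested, and 436 by DESeq2. It ran from 13 (without Control replicate 3) to 68 (without Control replicate 2) when 1 library was left out. The 4 genes called under every alternative that keeps more than 1 library in each group were Akr7a3, Gsta3, Gstm1 and Gstp1.

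On the normal diet the count of 19 became 219 by DESeq2 and 3 to 23 with 1 library left out. On the high fat diet the count of 8 became 19 without the filter, 249 by DESeq2 and 1 to 27 with 1 library left out. The interaction count of 23 became 128 by DESeq2, 14 by limma voom and 7 to 19, and the diet count of 67 became 538 by DESeq2 and 30 to 130. The cause was not tested.

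Whether the replicate numbers of the titles pair the samples is not known. Of 15 same-numbered pairs, 2 had a correlation of deviations over 0.1 (range -0.221 to 0.248). Differently numbered pairs ran from -0.353 (Control 2 with Control+SAMC 3) to 0.314 (Control 2 with Control+SAMC 1). With so few libraries a group these correlations cannot decide it. With the number as a replicate block, 10 genes were called on average over diet (7 of the 35), 6 on the normal diet and 9 for the interaction.

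Some genes that were not called changed sign, by setting. With 1 library left out Ahr ran from -0.066 to 0.427, Nfkb1 from -0.037 to 0.064 and Rela from -0.063 to 0.037. Rela was 0.0089 without a filter and 0.028 in the replicate block. Without the 4 low-fibrinogen libraries Nlrp3 was 0.032, Tlr2 0.292, Arg1 -0.036, Ass1 -0.044, Adgre1 0.078, Cd5l 0.155, Prf1 0.080 and Flt4 0.048. With 1 library left out the muscle genes Mylpf and Tnnt3 ran from -0.533 and -0.681 (without HFD+SAMC replicate 3) to 2.49 and 3.30. edgeR called none of these genes on all 12 libraries. Slc15a1 and Cyp1a1 rest on few reads in untreated libraries.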
